A study of Mus musculus and Mus musculus
Rattus norvegicus with 30 samples.

Results

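The genes described here are those of the mitochondrial genome, taken as every row of the RNA-seq count tables whose gene name began with mt- or Mt-. Mouse mitochondrial DNA carries 37 annotated genes, of which 13 encode proteins, 22 encode tRNAs and 2 encode rRNAs. All 13 mRNAs were listed in every table. The mESC replicate 1 table listed 16 tRNAs, the mESC replicate 2 table and the RMES mouse table each listed 22, and the RMES rat table listed none. In all, 29 of the 19919 genes shared by both mESC tables were mitochondrial (13 mRNAs and 16 tRNAs), against 35 of 34923 genes in the RMES mouse table and 13 of 25245 in the RMES rat table. The rRNAs mt-Rnr1 and mt-Rnr2 were not analysed here.

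The mitochondrial genome (mtDNA) is a small circle transcribed from both strands as long precursors. In the mouse, most genes lie on the transcript of the heavy strand, whereas mt-Nd6 and 8 tRNAs are read in the opposite direction and are called light-strand genes below. The precursors are cut at the tRNAs that punctuate them, and the mRNAs receive short poly(A) tails. All 13 proteins are subunits of the oxidative phosphorylation complexes, which also need many nuclear-encoded subunits. Naive mouse embryonic stem cells respire, and mtDNA is inherited from the egg, so a cell fused from mouse and rat cells can start with mitochondria of both species.

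The study asked whether the CDX2 proteins of mouse and rat act alike, and whether their targets respond alike in both genomes. Cdx2 is a homeobox transcription factor of the trophoblast and gut. The work used mESCs and RMES cells. Mouse embryonic stem cells (mESCs) gave 20 polyA-selected, stranded RNA-seq libraries, with 2 libraries for each of 10 groups: WT, mCdx2-OE (mouse Cdx2), rCdx2-OE (rat Cdx2), and rat Cdx2 carrying amino acid change 1, 2 or 3 of the DNA-binding domain singly or in combination (R1, R2, R3, R12, R13, R23 and R123). RMES cells are mouse-rat allodiploid embryonic stem cells made by fusing haploid cells of each species, and gave 4 libraries: WT replicates 1 and 2, mCdx2-OE and rCdx2-OE. The OE cells carried a Flag-tagged Cdx2 on a doxycycline-inducible (Tet-On) lentivirus and are called induced below; their WT counterparts are named only as WT in the labels. Per the study's methods the virus-treated cells were kept as stable lines and given doxycycline before collection. Whether a line was 1 clone is not given in the sources used here, and nothing stated that replicates were separate cultures, so the p-values measure the spread between these libraries only.

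Depth differed between the groups. The WT mESC libraries held 74960057 and 94686029 counted read pairs, and the 18 induced libraries held 12698443 to 24315929. Each RMES library held 36166038 to 41418817 pairs in its mouse table and 29453412 to 35249756 in its rat table. Cdx2 stood at 1.36 and 1.21 CPM (counts per 1000000 counts, after scaling between libraries) in the WT mESC libraries and at 37.2 to 147 CPM in the induced ones. In RMES cells, mouse Cdx2 stood at 129, 127, 968 and 4.45 CPM, and rat Cdx2 at 453, 440, 47.2 and 880 CPM, in WT 1, WT 2, mCdx2-OE and rCdx2-OE; both WT libraries thus already held Cdx2 of both species. Pou5f1, which marks stem cells, stood at 1469 and 1470 CPM in WT mESCs and between 499.7 and 942 CPM after induction. Summed CPM were 5726 and 5865 in WT and 3500.2 to 5966 after induction for 9 stem cell markers, of which 3 (Pou5f1, Sox2 and Dppa5a) lay below and 3 (Nanog, Klf4 and Tfcp2l1) above both WT libraries in every induced library. They were 156 and 157 in WT and 193 to 819 after induction for 8 trophoblast markers, a list that includes the overexpressed Cdx2 itself. Of these, 5 (Cdx2, Gata3, Hand1, Krt8 and Krt18) lay above and 1 (Eomes) below both WT libraries in every induced library. The rise of Cdx2 was set by the design, so the gap between WT and the lowest induced sum cannot be read as a rise of the other markers. The 8 fibroblast markers summed to 39.2 and 38.2 CPM in WT and to 2.81 to 19.9 CPM after induction, and 6 of them, among them Col1a1 at 14.8 and 15.1 CPM in WT, lay below WT in every induced library, with Lum at 0 after induction. Of the others, Pdgfrb stood at 4.66 and 3.89 CPM in WT, at 12.4 to 15.8 CPM in mCdx2-OE and rCdx2-OE and at 1.52 to 4.75 CPM in the mutants. Thy1 stood at 1.05 and 1.02 CPM in WT and at 0.111 to 1.46 CPM after induction. The part of the fibroblast markers in the mitochondrial results, and that of the deeper WT libraries, was not tested.

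Of the 13 mRNAs, 6 have a near-perfect copy in the mouse nuclear genome, which bears on every count given below for them. On GRCm38, the build of the mouse tables, bases 6390 to 11042 of mtDNA (28.5% of its 16299 bases) recur on the minus strand of chr1:24611535-24616188 with 99.9% identity over 4654 aligned positions. The copy differs from mtDNA by 2 substitutions, A6393T in mt-Co1 and T9461C in mt-Nd3 (mtDNA base, position counted from base 1 of mtDNA, base in the copy), and by 1 inserted base within mt-Tr. It holds all of mt-Co2, mt-Atp8, mt-Atp6, mt-Co3, mt-Nd3 and mt-Nd4l, 63.6% of mt-Nd4, 31.3% of mt-Co1 and none of mt-Nd1, mt-Nd2, mt-Nd5, mt-Nd6 or mt-Cytb. The stretches around the 3 differences are shown because they are all that separates the 2 sources, with the differing base in capitals and both sequences read in the direction of the mtDNA plus strand.
mtDNA, chrM:6390-6423: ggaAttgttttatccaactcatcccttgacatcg
nuclear copy, chr1:24616155-24616188: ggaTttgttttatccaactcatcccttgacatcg
mtDNA, chrM:9431-9491: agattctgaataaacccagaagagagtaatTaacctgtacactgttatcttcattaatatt
nuclear copy, chr1:24613087-24613147: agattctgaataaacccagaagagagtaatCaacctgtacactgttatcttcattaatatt
mtDNA, chrM:9795-9854: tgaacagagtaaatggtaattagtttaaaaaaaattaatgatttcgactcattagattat
nuclear copy, chr1:24612723-24612783: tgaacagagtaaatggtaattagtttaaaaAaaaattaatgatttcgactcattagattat

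Mitochondrial mRNAs took a larger share of the counts in induced mESCs than in WT mESCs. They made up 1.72% and 1.63% of all counts in the WT libraries and 2.82% to 5.57% (median 4.53%) in the 18 induced libraries, so that no induced library fell within the range of WT. The mean log2 share differed by 1.41, and an exact permutation test over the 20 libraries (two-sided) gave p = 0.00526, the smallest that 190 arrangements allow. Within replicate 1 the mCdx2-OE and rCdx2-OE libraries stood at 2.82% and 2.89%, below the 4.96% to 5.57% of the 7 mutants. Within replicate 2 they stood at 4.02% and 4.02%, inside the 3.86% to 4.84% of the mutants. In bulk samples more mitochondrial RNA per cell and less of other RNA cannot be told apart, and neither can fewer cells of a type and less RNA per cell.

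**Figure D1:**
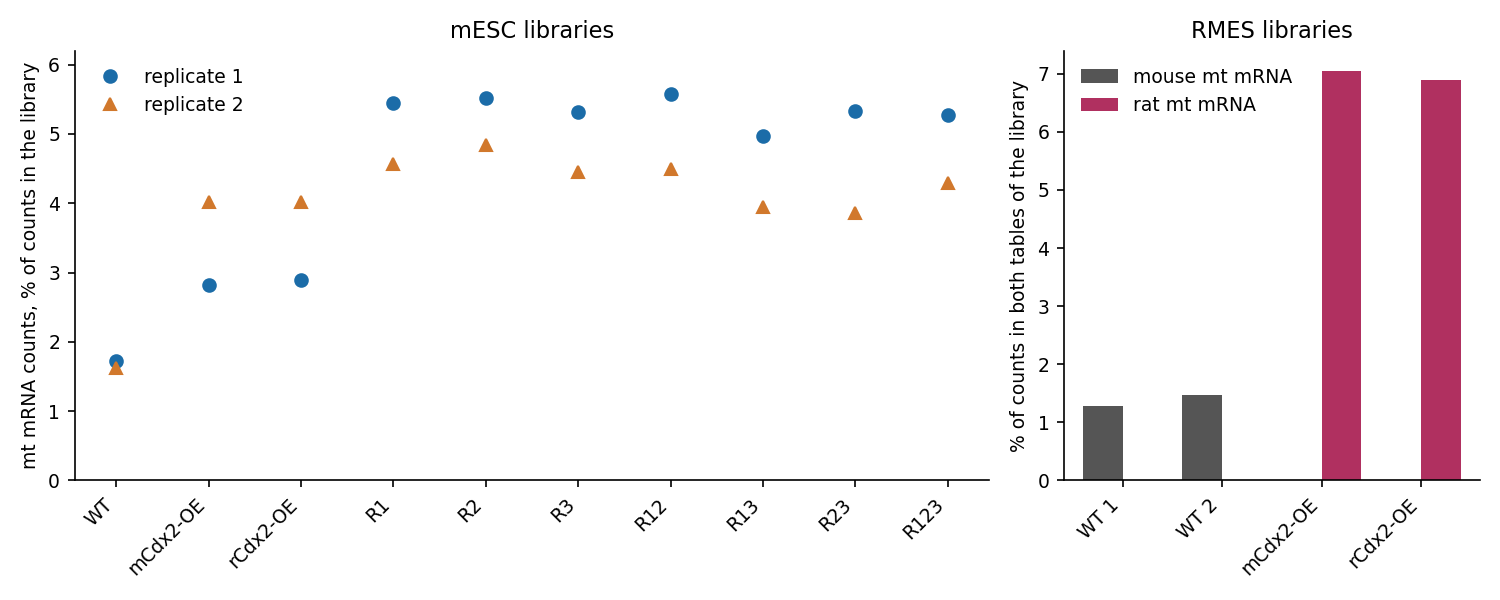
Share of counts on the 13 mitochondrial mRNAs. Left, percent of all counts in each mESC library, by construct, with circles for replicate 1 and triangles for replicate 2; the WT libraries lie at 1.63% and 1.72% and every induced library at 2.82% or above. Right, percent of the counts of both species' tables in each RMES library, as bars for mouse and rat transcripts; the WT libraries show mouse transcripts and the induced libraries rat transcripts.

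By gene, 10 of the 13 mRNAs changed between all induced constructs and WT in mESCs (edgeR quasi-likelihood test, Benjamini-Hochberg adjusted p under 0.05 over 16000 genes), 6 higher and 4 lower. Of all genes tested, 74.7% were called in this comparison, 35.6% higher and 39.2% lower, so that a share of members called near these values says little about them as a class. The median log2 fold change was 1.05 over the 13 mRNAs and -0.02 over all genes. The 7 mRNAs that do not lie wholly inside the nuclear copy were all called, and of the 6 that do, 3 were.

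Complex I, the NADH dehydrogenase that feeds electrons into the chain, draws 7 subunits from mtDNA, and 4 of its mRNAs rose. mt-Nd1 (chrM:2751-3707) stood at 2704 and 2731 CPM in WT and at 4272 to 8974 CPM (median 6843) after induction, a log2 fold change of 1.29 (SE 0.15, adjusted p = 1.2e-06, edgeR with Benjamini-Hochberg adjustment). mt-Nd2 (chrM:3914-4951) stood at 1266 and 1289 CPM in WT and at 2341 to 4568 CPM (median 3399) after induction, a log2 fold change of 1.39 (SE 0.23). All 18 induced libraries lay above both WT libraries for both genes. mt-Nd4 (chrM:10167-11544), which shares part of its sequence with the nuclear copy, stood at 839 and 787 CPM in WT and at 1617 to 2699 CPM (median 2024) after induction, a log2 fold change of 1.35 (SE 0.17). mt-Nd5 (chrM:11742-13565) stood at 1595 and 1534 CPM in WT and at 3176 to 9107 CPM (median 6096) after induction. Its log2 fold change of 2.02 (SE 0.30) was the largest rise among the 13 mRNAs. The same direction held within each replicate number, with log2 ratios of induced to WT of 1.35 and 1.28 for mt-Nd1, 1.56 and 1.22 for mt-Nd2, 1.44 and 1.25 for mt-Nd4, and 2.18 and 1.90 for mt-Nd5 in replicates 1 and 2.

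The mRNA of cytochrome b and that of the largest complex IV subunit rose with them. mt-Cytb (chrM:14145-15288), the only complex III subunit encoded in mtDNA, stood at 2847 and 2823 CPM in WT and at 4306 to 7495 CPM (median 5891) after induction, a log2 fold change of 1.05 (SE 0.13, adjusted p = 2.6e-06, edgeR with Benjamini-Hochberg adjustment). mt-Co1 (chrM:5328-6872), the catalytic subunit of cytochrome c oxidase, was the most counted mRNA per kb, at 5516 and 5405 CPM per kb in WT. It stood at 8523 and 8351 CPM in WT and at 9535 to 25712 CPM (median 21202) after induction, a log2 fold change of 1.24 (SE 0.18). Both genes lay above both WT libraries in 18 of 18 induced libraries.

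mt-Nd6, the single light-strand mRNA, went the other way. It stood at 131 and 73.0 CPM in the WT libraries and at 41.3 to 71.0 CPM (median 51.4) after induction, a log2 fold change of -0.93 (SE 0.17, adjusted p = 8.9e-05, edgeR with Benjamini-Hochberg adjustment). All 18 induced libraries lay below both WT libraries, but the WT libraries themselves differed, and without WT replicate 1 the log2 fold change was -0.46, with an adjusted p of 0.047 in the edgeR test. mt-Nd6 (chrM:13552-14070, minus strand) shares its last 14 bases with the last bases of mt-Nd5 on the plus strand, shown here in capitals within chrM:13532-13585 because these 2 genes moved in opposite directions.
mt-Nd5/mt-Nd6 overlap: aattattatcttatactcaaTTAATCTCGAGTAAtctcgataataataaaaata

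Relative to the other mRNAs, only mt-Nd5 and mt-Nd6 separated WT from induced libraries. mt-Nd6 made up 0.716% and 0.415% of mitochondrial mRNA counts in WT and 0.0798% to 0.239% (median 0.125%) after induction. mt-Nd5 made up 8.73% and 8.72% in WT and 11.9% to 16.9% (median 14.4%) after induction. For both, the exact permutation test (two-sided) gave p = 0.00526, the smallest possible, and both remained under 0.05 after Benjamini-Hochberg adjustment over the 13 shares. Neither remained so when libraries were exchanged only within a replicate number, where the exact p was 0.01 for each, the smallest that 100 arrangements allow. The other 11 shares gave p of 0.0684 or more in the same exact test. mt-Co1 made up 46.6% and 47.5% in WT and 36.0% to 52.3% (median 45.2%) after induction, and its groups overlapped. The shares of mt-Nd5 and mt-Nd6 were chosen from 13 shares that add up to a whole, and neither result held on a centred log ratio, with exact p of 0.116 for mt-Nd5 and 0.0526 for mt-Nd6.

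**Figure D2:**
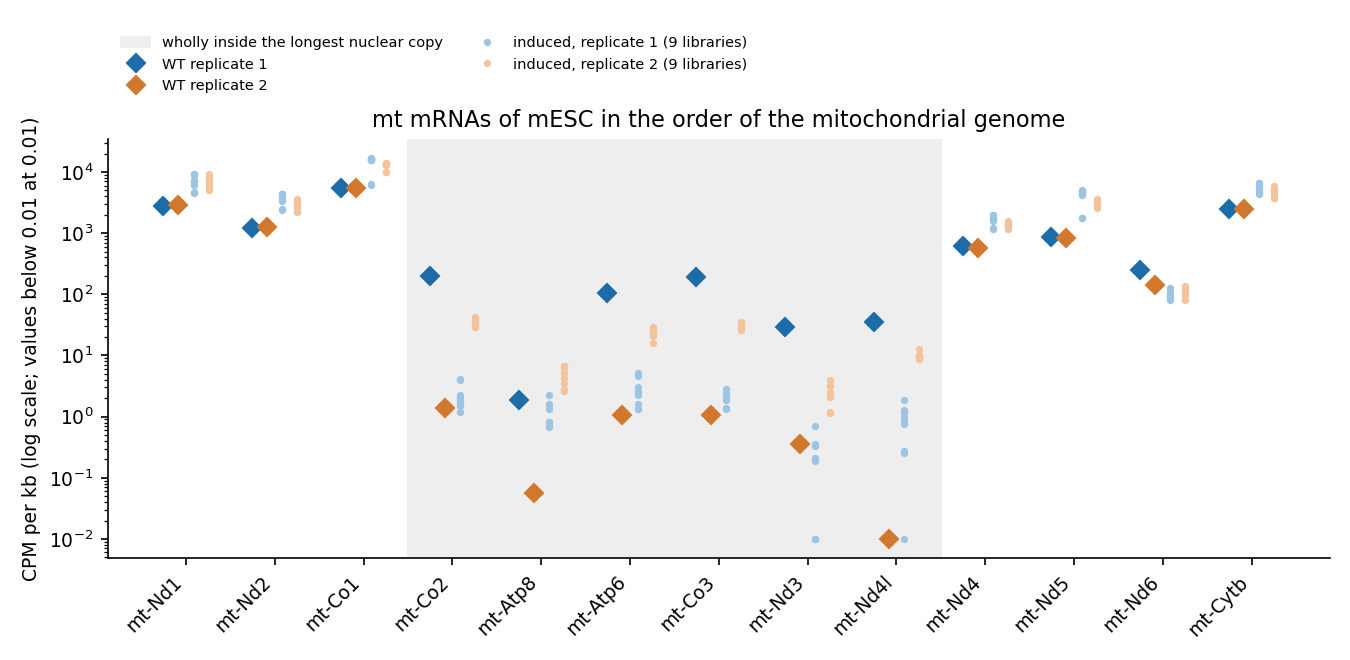
Level of each mitochondrial mRNA in mESCs, as CPM per kb of gene length on a log scale, in genome order. Diamonds are the WT libraries and dots the induced libraries, separated by replicate number; the shaded genes lie wholly inside the nuclear copy on chromosome 1, and there WT replicate 1 lies far above WT replicate 2 for each of the 6 genes.

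The 6 mRNAs inside the nuclear copy were counted at a small fraction of their neighbours and disagreed between libraries of the same group. Together they made up 2.05% of mitochondrial mRNA counts in WT replicate 1, 0.0150% in WT replicate 2, 0.00717% to 0.0340% in the 9 induced libraries of replicate 1 and 0.132% to 0.179% in the 9 of replicate 2. mt-Co2, a core subunit of complex IV next to mt-Co1 on the genome, stood at 134 and 0.948 CPM in the WT libraries, at 0.802 to 2.81 CPM in induced replicate 1 and at 19.9 to 28.6 CPM in induced replicate 2. WT replicate 1 was thus the highest library and WT replicate 2 one of the lowest. mt-Co3, another core subunit of complex IV, had the same order with 148 and 0.822 CPM in WT, and mt-Atp6, a subunit of ATP synthase, with 70.8 and 0.731 CPM. The calls for these genes rest on that one library. mt-Co2, mt-Co3 and mt-Nd3 were called lower, with log2 fold changes of -2.50 (SE 1.03), -2.53 (SE 1.04) and -3.57 (SE 0.79), while mt-Atp6 at -1.98, mt-Nd4l at -1.70 and mt-Atp8 at 1.67 were not called. None of these 3 was called by edgeR without WT replicate 1, where the values turned to 3.64 for mt-Co2, 3.95 for mt-Co3, 1.72 for mt-Nd3, 3.61 for mt-Atp6 and 8.07 for mt-Nd4l. In that fit mt-Nd4l, which had 0 counts in WT replicate 2, and mt-Atp8 at 5.12 were called higher. Per the table's own header, pairs that aligned to several places were not counted in replicate 2, and the options of the replicate 1 run are not given in the sources used here. The part that the nuclear copy plays in these counts was not tested.

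The tRNAs were counted sparsely, in libraries made for polyadenylated RNA and not for molecules of their length. Their summed counts were 30.2 per 10000 mitochondrial mRNA counts in each WT library and 4.08 to 15.4 (median 7.57) in the induced libraries, with no overlap. Of the 16 tRNAs shared by both mESC tables, 9 passed the filter on low counts and 5 of those fell, whereas none rose, beside 39.2% of all genes lower and 35.6% higher. Of the 5, mt-Tl2, mt-Ts2 and mt-Tq passed that filter only through the WT libraries, so they could only be called lower. The count therefore says little about the tRNAs as a class. The 7 light-strand tRNAs, summed, stood at 6.48 and 5.24 per 10000 mRNA counts in WT and at 0.0956 to 0.922 (median 0.220) after induction. The 9 heavy-strand tRNAs, summed, stood at 23.7 and 24.9 in WT and at 3.75 to 15.4 (median 7.09) after induction. Part of the fall in these ratios is the rise of the mRNAs in the denominator, so the levels per library are given next.

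Of the light-strand tRNAs, mt-Tq (glutamine) stood at 3.20 and 2.81 CPM in WT and at 0.0687 to 0.795 CPM (median 0.234) after induction, a log2 fold change of -3.53 (SE 0.24, adjusted p = 1.1e-09, edgeR with Benjamini-Hochberg adjustment). mt-Tp (proline), the last tRNA before the control region, stood at 6.07 and 5.44 CPM in WT and at 0.0494 to 1.42 CPM (median 0.527) after induction, a log2 fold change of -3.41 (SE 0.23). Both lay below WT in 18 of 18 induced libraries. On the heavy strand, mt-Tt (threonine) fell by 1.02 on the log2 scale (SE 0.22). mt-Tl2 (leucine), which lies between mt-Ts2 and mt-Nd5, had 248 counts over the WT libraries and 0 over the induced ones. That is at least 162-fold lower, taking a floor of 3 counts over the induced group. mt-Ts2 (serine) had 136 counts in WT and 1 after induction, a ratio of 267 with an exact 95% interval of 47.1 to 10629 for counting error. mt-Ts1, inside the nuclear copy, had 101 and 4 counts in the WT libraries and 0 after induction, and mt-Ty had 23 and 29 in WT and 0 after induction. Of the 6 tRNAs listed only for replicate 2, mt-Th had 11 counts in WT and mt-Tc had 8, and no induced library had more than 1. mt-Ty, mt-Ts1 and mt-Th lie wholly, mt-Tc for 78.8% and mt-Ts2 for 50.8% of its length, and mt-Tl2, mt-Tq, mt-Tp and mt-Tt not at all, in stretches of at least 100 bases that recur without a difference in the nuclear genome.

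Not every tRNA fell. mt-Tf, mt-Tv and mt-Tl1 flank the rRNA genes, and mt-Tw follows mt-Nd2, and these 4 were not called. mt-Tl1 (leucine) held 60.5% and 64.4% of all tRNA counts in WT and 64.6% to 85.2% after induction. It stood at 33.4 and 34.2 CPM in WT and at 7.73 to 61.2 CPM (median 25.0) after induction, so the induced libraries fell on both sides of WT. mt-Tf stood at 1.62 and 1.38 CPM in WT and at 0.962 to 3.89 CPM after induction, and mt-Tv at 1.12 and 0.936 CPM in WT and at 0.115 to 2.73 CPM. The most counted tRNA, mt-Tl1, and mt-Tl2, one of 3 shared tRNAs with no count in any induced library, share the amino acid but not the sequence, and both are given in full from the GRCm38 mtDNA, the first at chrM:2676-2750 and the second at chrM:11671-11741.
mt-Tl1: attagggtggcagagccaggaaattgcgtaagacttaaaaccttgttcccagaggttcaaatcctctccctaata
mt-Tl2: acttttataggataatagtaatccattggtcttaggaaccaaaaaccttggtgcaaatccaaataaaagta

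**Figure D3:**
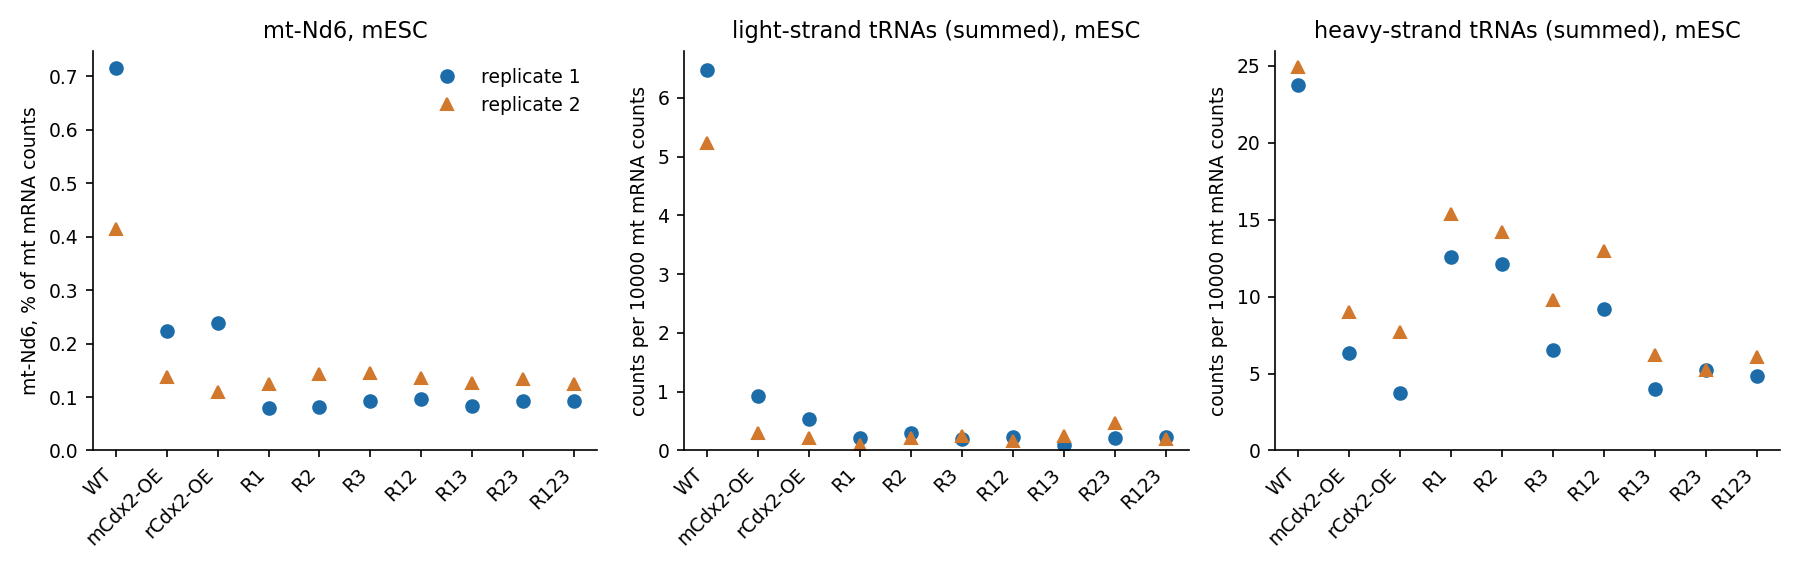
Light-strand and heavy-strand transcripts in each mESC library, by construct, with circles for replicate 1 and triangles for replicate 2. The panels show mt-Nd6 as percent of mitochondrial mRNA counts, and the light-strand and heavy-strand tRNAs summed, per 10000 mitochondrial mRNA counts; in each panel both WT libraries lie above the highest induced library.

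Each construct was also compared with WT on its own, and all 9 comparisons share the same 2 WT libraries. Among the 7 mRNAs not wholly inside the nuclear copy, 6 rose and mt-Nd6 fell in each of the 9 comparisons. Over all 13 mRNAs, 7 were called for mCdx2-OE, where 69.7% of all genes were called, and 7 for rCdx2-OE, with 70.6% of all genes. Of the single changes, R1 gave 7 (60.8% of all genes), R2 gave 7 (60.9%) and R3 gave 8 (63.7%). Of the combined changes, R12 gave 7 (61.7%), R13 gave 8 (65.5%), R23 gave 7 (66.5%) and R123 gave 7 (66.8%). The additional gene in R3 and R13 was mt-Nd3, one of the 6 genes inside the copy. The rises of mt-Nd1, mt-Nd2, mt-Nd4, mt-Nd5 and mt-Cytb were called in each comparison whichever library was left out. The fall of mt-Nd6 was lost without WT replicate 1 for 8 of the 9 constructs, all but R13, with log2 fold changes of -0.55 to -0.32, and also for R2, R3 or R12 without its own replicate 1 and for rCdx2-OE without its own replicate 2. For mt-Co1 the call in mCdx2-OE and in rCdx2-OE was lost without either WT library, and without the construct's own replicate 2, where the log2 fold change was 0.17 and 0.20. The log2 fold changes of mt-Co1 were 0.57 in both mCdx2-OE and rCdx2-OE and 1.40 to 1.48 in the 7 mutants, and those of mt-Nd5 were 1.47 and 1.49 against 2.06 to 2.27. The difference between these 2 sets of constructs was not tested.

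**Figure D4:**
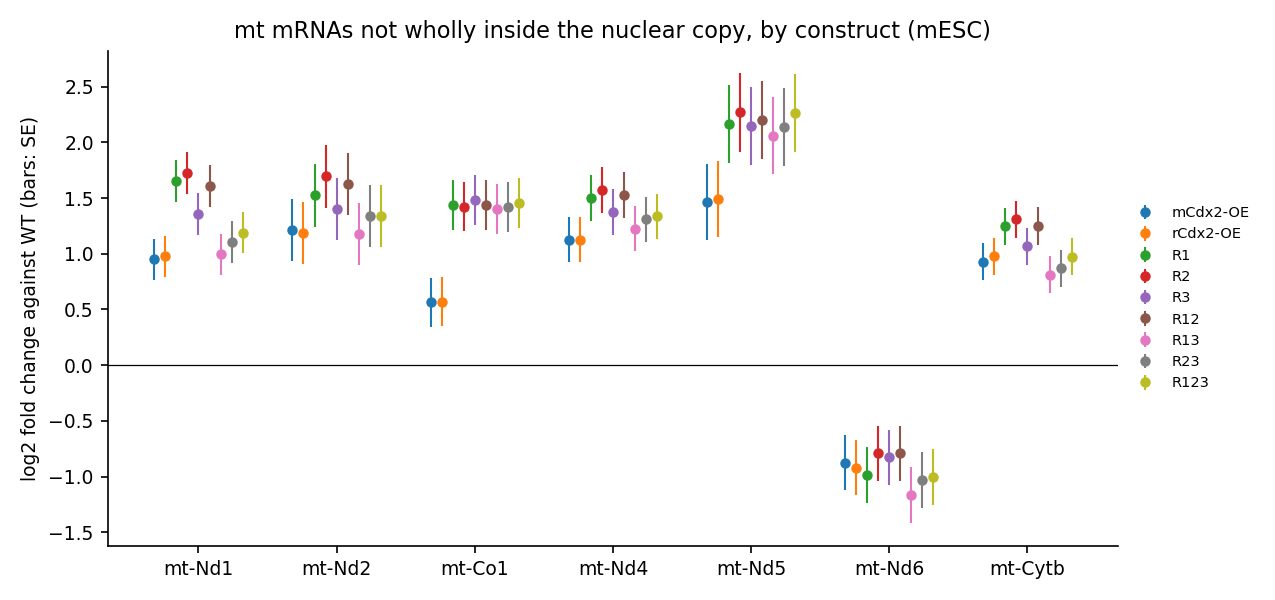
Log2 fold change of each construct against WT in mESCs for the 7 mitochondrial mRNAs that do not lie wholly inside the nuclear copy, with standard errors from edgeR. Every construct lies above 0 for 6 genes and below 0 for mt-Nd6; mCdx2-OE and rCdx2-OE lie below the 7 mutants for mt-Co1.

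The mouse and rat proteins gave no detectable difference in mitochondrial mRNAs. Between mCdx2-OE and rCdx2-OE, none of the 13 mRNAs or the 9 tested tRNAs was called by edgeR, none had an unadjusted p under 0.05, and DESeq2 called none of the mRNAs. Over all genes, 0.0188% were called. For the 7 mRNAs not wholly inside the copy the log2 differences were -0.05 to 0.05, with standard errors of 0.16 to 0.34, so differences of that size would not have been detected. Among the 16 libraries of rat constructs, fitted as additive effects of the 3 changes, change 1 and change 2 each called 0% of all genes and 0 of the 13 mRNAs. No mRNA had an unadjusted p under 0.05 for either change, and DESeq2 also called none. Change 3 called 37.5% of all genes and 2 of the 13 mRNAs. mt-Nd1 was lower with a log2 difference of -0.35 (SE 0.13, adjusted p = 0.045) and mt-Cytb with one of -0.27 (SE 0.096, adjusted p = 0.035) in edgeR with Benjamini-Hochberg adjustment, and DESeq2 also called 2. Both calls were lost without any 1 of 7 libraries (R1, R2 or R12 replicate 1, or R2, R13, R23 or R123 replicate 2), and 1 was left without any of 5 others (R13, R23 or R123 replicate 1, or R1 or R12 replicate 2). With change 3, mt-Nd1 stood at 4861 to 7036 CPM and mt-Cytb at 4306 to 6415 CPM. Without it, R1, R2 and R12 held 7886 to 8974 and 5994 to 7495 CPM. However, rCdx2-OE, also without change 3, held mt-Nd1 at 4447 and 6251 CPM and mt-Cytb at 5376 and 5788 CPM, within or below the range with it.

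Of the tRNAs, change 3 called 2 of the 6 that passed the filter, near the 37.5% of all genes that it called, so the count says little about the tRNAs as a class. mt-Tl1 was lower with change 3, with a log2 difference of -1.11 (SE 0.33, adjusted p = 0.015), and mt-Tt was higher by 1.03 (SE 0.27, adjusted p = 0.0067), both in edgeR with Benjamini-Hochberg adjustment. The libraries without change 3 other than rCdx2-OE, namely R1, R2 and R12, held mt-Tl1 at 43.0 to 61.2 CPM, against 13.9 to 33.0 CPM in R3, R13, R23 and R123. rCdx2-OE, which also lacks change 3, held mt-Tl1 at 7.73 and 22.4 CPM, within or below the range of the libraries that carry it. Against WT, mt-Tl1 was called in both directions, with log2 fold changes of 0.84 in R1 and 0.76 in R2 and of -1.24 in rCdx2-OE, -1.14 in R13, -1.02 in R23 and -0.85 in R123. The values in R12 (0.43), R3 (-0.16) and mCdx2-OE (-0.74) were not called. Both calls for change 3 remained whichever of the 16 libraries was left out, with log2 differences of -1.35 to -1.01 for mt-Tl1 and 0.89 to 1.25 for mt-Tt. The call for mt-Tt rests on only 4 to 27 counts per library. It stood at 0.653 to 1.49 CPM with change 3 and at 0.231 to 0.888 CPM without it, and these ranges overlapped.

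In RMES cells the mitochondrial transcripts changed species between WT and induced libraries. Mouse mitochondrial mRNAs had 859975 and 1083121 counts in WT 1 and WT 2, and 11358 in mCdx2-OE and 9347 in rCdx2-OE. Rat mitochondrial mRNAs had 1743 and 2496 counts in the WT libraries, and 5038553 and 4916435 in mCdx2-OE and rCdx2-OE. The mouse share of these counts was 99.8% in both WT libraries (exact 95% intervals for counting error, 99.788% to 99.807% and 99.761% to 99.779%), 0.225% in mCdx2-OE (0.221% to 0.229%) and 0.190% in rCdx2-OE (0.186% to 0.194%). Over nuclear genes, by contrast, the mouse share was 55.5% and 55.6% in WT and 54.6% and 54.4% in the induced libraries. The species of the mitochondrial transcripts, the Cdx2 induction and the history of each cell line move together in these 4 libraries and cannot be told apart.

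**Figure D5:**
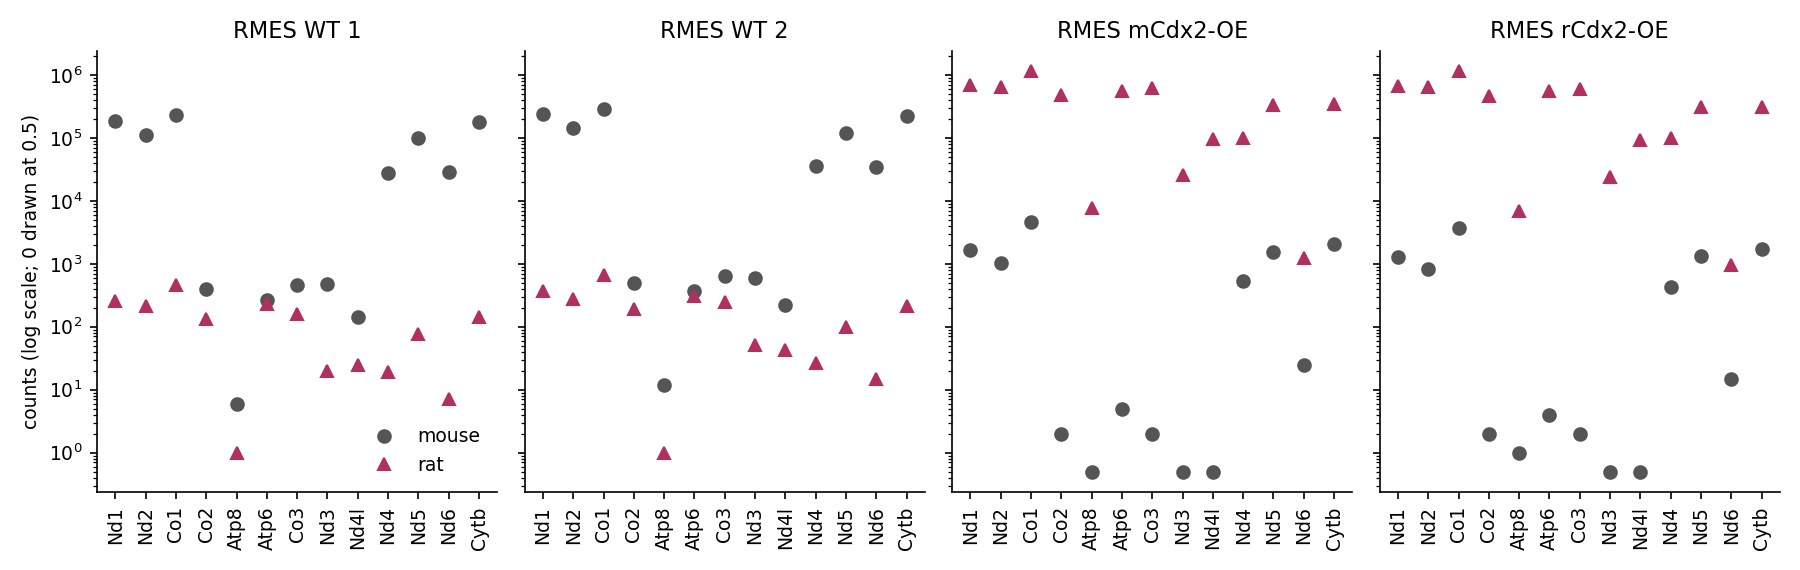
Counts of each mitochondrial mRNA in the 4 RMES libraries, on a log scale, with circles for the mouse gene and triangles for the rat gene, in genome order. In both WT libraries the mouse genes that are not wholly inside the nuclear copy lie far above the rat genes, and in both induced libraries every rat gene lies above its mouse counterpart.

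Every mitochondrial mRNA tested moved with this change. In the mouse table, with mCdx2-OE and rCdx2-OE taken as replicates of 1 induced group, all 12 mRNAs that passed the filter and all 17 tRNAs that passed it were lower than in WT (edgeR, Benjamini-Hochberg), where 81.9% of all genes were called. These tRNAs, and mt-Co2, mt-Atp6, mt-Co3, mt-Nd3 and mt-Nd4l, had at most 11 counts in an induced library. They passed the filter only through WT, so they could only be called lower. The log2 fold changes of the 10 mRNAs with counts left ran from -10.93 for mt-Nd6 to -6.25 for mt-Co1. In the rat table all 13 mRNAs were higher, where 82.5% of all genes were called. Mt-atp8 and Mt-nd6 passed the filter there only through the induced libraries, so these 2 could only be called higher. The log2 fold changes of the rat mRNAs ran from 6.23 for Mt-nd6 to 11.67 for Mt-nd4, leaving aside Mt-atp8, which had 1 count in each WT library and 7711 and 6993 in mCdx2-OE and rCdx2-OE. The difference between origins in the response was called for 13 of 13 mRNAs in the edgeR test of origin by induction, where 61.9% of 13630 genes paired by name were called, and the rat response exceeded the mouse response by 16.92 to 19.46 on the log2 scale in the 10 genes other than mt-Atp8, mt-Nd3 and mt-Nd4l, which had 0 or 1 mouse count after induction. mt-Nd3 and mt-Nd4l, both at 0 mouse counts in the induced libraries, were at least 324-fold and 112-fold lower there than in WT, taking a floor of 3 counts over the group.

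Mitochondrial mRNAs of either species together took 1.28% and 1.47% of the counts of both tables in WT and 7.06% and 6.90% in the induced libraries. Over the 7 mRNAs that do not lie wholly inside the mouse nuclear copy the values were 1.28% and 1.47% in WT and 4.57% and 4.47% after induction. The induced libraries were thus above WT in RMES cells as in mESCs, with both comparisons resting on 2 WT libraries. The 2 measures are not alike, because the RMES counts were nearly all mouse transcripts in WT and rat transcripts after induction. The 7 mRNAs also include mt-Co1 and mt-Nd4, which lie partly inside the mouse copy.

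The mouse and rat genes differed in the stretch of the nuclear copy. The 6 genes made up 0.203% and 0.216% of mouse mitochondrial mRNA counts in the RMES WT libraries and 35.3% and 35.3% of rat counts in mCdx2-OE and rCdx2-OE. Per kb, rat Mt-co2 had 14.0% and 13.9% of the mitochondrial mRNA counts in the induced libraries, near the 14.8% and 15.3% of Mt-co1, while mouse mt-Co2 had 0.0675% and 0.0665% in WT against 17.2% and 17.1% for mt-Co1. Mt-atp6 at 16.1% and 16.2% and Mt-co3 at 15.5% and 15.6% per kb were likewise level with Mt-co1. The mouse share of mt-Co2 in the WT libraries was 74.9% and 72.1%, on 397 and 493 mouse and 133 and 191 rat counts, against 99.8% for mt-Co1. Whether the rat genome holds a similar copy was not analysed here.

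mt-Nd6 also differed between species and libraries. Of mouse mitochondrial mRNA counts it made up 3.39% and 3.23% in RMES WT, above the 0.716% and 0.415% of WT mESCs, and 0.220% and 0.160% in the induced RMES libraries. Of rat counts it made up 0.402% and 0.601% in RMES WT, on 7 and 15 counts, and 0.0247% and 0.0194% in the induced RMES libraries. Its mouse counts fell from 29164 and 35028 to 25 and 15, a log2 fold change of -10.93 (SE 0.13) against -6.25 to -7.46 for the other 6 mouse mRNAs that are not wholly inside the copy. The tRNAs of the mouse table had 12670 and 15820 counts in WT, or 147 and 146 per 10000 mitochondrial mRNA counts, and 13 and 4 counts after induction. mt-Tl1 led with 4348 and 5254 counts in WT, followed by mt-Tp with 2242 and 3062 and mt-Tq with 1733 and 2049, so 2 of the 3 most counted tRNAs were light-strand genes. Of the less counted ones, mt-Ti had 108 and 129 counts in WT, mt-Te 85 and 127, mt-Tn 82 and 80, mt-Ty 68 and 78, and mt-Ta 66 and 52, and all 5 had 0 after induction. mt-Td and mt-Tk, inside the copy, had no count in any RMES library.

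In the lists of nuclear genes for mitochondrial proteins examined here, most genes fell in induced cells. Of the 72 tested nuclear subunits of complexes I, III, IV and V, 62 fell and 1 rose in induced mESCs, with a median log2 fold change of -0.82 against -0.02 over all genes. Over all genes in the mESC comparison, 39.2% were lower and 35.6% higher. Atp5e of ATP synthase stood at 121 and 124 CPM in WT and at 20.6 to 41.8 CPM after induction, a log2 fold change of -2.19 (SE 0.14). Atp5k stood at 80.6 and 73.4 CPM in WT and at 10.8 to 46.8 CPM after induction, and Uqcr11 of complex III at 122 and 118 CPM in WT and at 22.1 to 51.0 CPM. In the RMES mouse table, 67 of 72 fell and 1 rose, where 39% of all genes were lower and 42.8% higher. In the RMES rat table, 67 of 70 fell and 3 rose, where 39% were lower and 43.5% higher. Of the 78 tested mitochondrial ribosomal protein genes, 60 fell and 4 rose in mESCs, with a median of -0.55. Mrpl34 fell the most, from 51.8 and 51.0 CPM to a median of 15.4 CPM, and Mrps2 rose the most, from 98.4 and 96.1 CPM to a median of 162 CPM. In RMES cells both were lower, with log2 fold changes for the mouse and rat genes of -1.29 and -0.52 for Mrpl34 and of -0.17 and -0.68 for Mrps2.

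Of the 17 genes for transcription and copying of mtDNA, 13 fell and 2 rose in induced mESCs, with a median of -0.56. For this list and those that follow, 39.2% of all genes were lower and 35.6% higher in the same comparison. Polrmt, the mitochondrial RNA polymerase, stood at 75.1 and 73.0 CPM in WT and at 26.1 to 40.9 CPM after induction, a log2 fold change of -1.15 (SE 0.07), and Twnk, the mtDNA helicase, at 67.2 and 66.6 CPM in WT and at 32.4 to 43.7 CPM. Primpol, a primase-polymerase, rose from 13.1 and 12.7 CPM to 21.9 to 63.7 CPM. Of the 20 genes for processing and decay of mitochondrial RNA, 12 fell and 3 rose, with a median of -0.27. Slirp, which with Lrpprc binds mitochondrial mRNAs, stood at 68.4 and 73.2 CPM in WT and at 19.3 to 31.5 CPM after induction, a log2 fold change of -1.55 (SE 0.13). Elac2, which cuts the tRNA 3' ends, had a log2 fold change of -0.90 (SE 0.06), and Mtpap, the mitochondrial poly(A) polymerase, rose by 0.49 (SE 0.07). Of the 9 tested regulators of nuclear genes for mitochondria, 6 fell and 1 rose. Myc stood at 24.7 and 24.4 CPM in WT and at 0.963 to 14.6 CPM after induction, Esrra had a log2 fold change of -1.44 (SE 0.13), and Gabpa rose by 0.57 (SE 0.11). In RMES cells Mtpap and Gabpa were instead lower. Log2 fold changes for the mouse and rat genes were -1.47 and -0.90 for Mtpap and -1.26 and -0.40 for Gabpa. Myc was lower for the mouse gene (-1.56) but higher for the rat gene (1.077). Primpol was higher for the mouse gene (0.87) and not called for the rat gene (-0.22). Polrmt, Twnk, Slirp, Elac2 and Esrra were lower for the genes of both species. Each gene named here as rising or falling, or as higher or lower in RMES cells, had an adjusted p under 0.05 in edgeR with Benjamini-Hochberg adjustment.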

How the data were processed

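The deposited RNA-seq values are raw counts of read pairs per gene, made by the authors with STAR 2.7.0d and featureCounts on an Ensembl annotation without pseudogenes. The mESC replicates were counted in 2 separate runs, so the replicate number is also the counting run. RMES pairs were given to mm10 or rn6 by edit distance and counted in 2 tables. Members were all rows named mt- or Mt-. The members and gene lists were chosen with earlier results of these data known.

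Counts were tested with edgeR 4.0.16 (TMM factors, filterByExpr, quasi-likelihood F test, Benjamini-Hochberg adjustment over all genes, calls at an adjusted p under 0.05) in R 4.3.3. DESeq2 1.42.0 was an alternative. CPM used TMM library sizes. In mESCs, 22 of 29 member rows passed the filter. Shares were compared with exact permutation tests in scipy 1.17.1. A sign-flip test of the RMES mouse share over 4 libraries cannot give an exact p under 0.125 and was not used. Intervals are exact Clopper-Pearson at 95% and, like the floor of 3 counts, cover counting error only. Nuclear copies were found with blastn 2.17.0 on GRCm38. The fit was tested on simulated counts. List genes named were taken from the 3 largest rises and 3 largest falls of each list among those called with at least 50 counts per library on average and the same direction in both replicates. Not all genes that met this rule are named. Of the tRNAs, those with at least 50 counts in any mESC or RMES library were named, with mt-Th, mt-Tc, mt-Td and mt-Tk added after their values were seen. ATAC-seq and ChIP-seq peaks were not used.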

Additional observations from a re-analysis of the deposited data

Results flagged for a closer look

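The response of the rat transcript minus that of the mouse transcript in RMES cells, by an edgeR test of origin by induction on the log2 scale, was the pattern singled out for all 13 mitochondrial mRNAs. It was 18.17 for mt-Nd1, 18.43 for mt-Nd2, 16.92 for mt-Co1, 19.14 for mt-Co2, 16.44 for mt-Atp8, 17.04 for mt-Atp6, 19.46 for mt-Co3, 21.12 for mt-Nd3, 21.59 for mt-Nd4l, 18.03 for mt-Nd4, 17.99 for mt-Nd5, 17.20 for mt-Nd6 and 17.51 for mt-Cytb. For mt-Nd3, mt-Nd4l and mt-Atp8, at 0 or 1 mouse count in the induced libraries, the value depends on the prior count of the fit and is no bound. Its cause was not tested.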

How the results depend on the processing

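The replicate numbers were not taken to pair the mESC libraries, since over all genes the deviations of 45 pairs of groups correlated at -0.14 to 0.45 (median -0.0027), although the share of the 6 mRNAs inside the copy was lower in replicate 1 than in replicate 2 for all 9 constructs. The share of all mitochondrial mRNAs also differed by replicate number, being higher in replicate 1 for each mutant and lower there for mCdx2-OE and rCdx2-OE. With the replicate block, 12 of 13 mRNAs were called for all induced constructs, and no paired value was used otherwise; the exact permutation within replicates gave p = 0.01 for the share, the smallest possible, and 0 of 13 shares in the composition after adjustment. Of 379 alternative counts in mESC comparisons 363 stayed within 1.5 times the reported count, as did all 20 in RMES cells. The 363 include refits of changes 1 to 3 without a WT or mCdx2-OE library. Those fits never used these libraries, so their counts could not move. At a fold change over 2, 3 mRNAs were called for mCdx2-OE, 3 for rCdx2-OE and 0 for change 3; without the low-count filter, change 3 called 1. Leaving out each library in turn gave 8 to 12 for all induced constructs, 0 to 2 for change 3 and 0 to 2 composition shares. The log2 share difference then ran from 1.37 to 1.45, with a smallest possible p of 0.0526 once a WT library was left out. The composition gave 0 on the centred log ratio. DESeq2 called 8 of 13, losing mt-Co2 and mt-Co3.

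Over the libraries left out in turn, log2 fold changes ran from -3.49 to 3.64 for mt-Co2, -2.97 to 3.61 for mt-Atp6, -3.53 to 3.95 for mt-Co3, -4.57 to 1.72 for mt-Nd3 and -2.72 to 8.07 for mt-Nd4l; mt-Tw turned to 0.014 on total counts. Divided by table totals, the mouse share in RMES was 99.74%, 99.70%, 0.219% and 0.185% for WT 1, WT 2, mCdx2-OE and rCdx2-OE. Over the 7 mRNAs not wholly inside the copy, an alternative chosen after seeing the data, it was 99.86%, 99.85%, 0.347% and 0.293%.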

Other observations

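In the RMES WT libraries, where rat transcripts were few, the rat genes of the 7 mRNAs not wholly inside the mouse copy made up 0.137% and 0.153% of the counts of both species, against 24.6% and 26.4% for the 6 inside it. Those 6 genes held 32.6% and 33.6% of rat mitochondrial mRNA counts in WT and 35.3% in each induced library, against 0.203% and 0.216% of mouse counts in WT. In the induced libraries mouse mt-Nd6 made up 1.97% and 1.54% of the counts of both species for that gene, on 25 and 15 mouse counts, against 0.392% and 0.322% for mt-Co1 on 4535 and 3747. The rat counts of the WT libraries held Mt-nd6 at 0.402% and 0.601% of rat mitochondrial mRNA, on 7 and 15 counts, above the 0.0247% and 0.0194% of the induced libraries.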
